A study of Homo sapiens with 8 samples.

Results

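A set of 10 genes of haemoglobin production was followed through 8 RNA-seq libraries from a human leukaemia cell line: the alpha-cluster globins HBZ, HBA2 and HBA1, the beta-cluster globins HBE1, HBG2, HBG1, HBD and HBB, the alpha-globin chaperone AHSP, and ALAS2, the erythroid enzyme of haem synthesis. They were chosen by name through their Ensembl IDs, and all 10 were found among the 34618 genes of the deposited tables. The 4 RRM2_OE libraries came from cells carrying a construct labelled iRxI/AxA mutant; their other label, RRM2 OE, is taken to mean overexpression of RRM2, a subunit of ribonucleotide reductase. The 4 MOCK libraries came from cells carrying the empty vector, and both sets of cultures received doxycycline at 2 µg/mL. All cells are labelled THP1, an acute monocytic leukaemia line. The labels state neither whether the replicates were separate cultures nor how many clones were used, so the p-values cover the spread among these libraries alone, which may be technical.

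Haemoglobin is a tetramer of alpha-like and beta-like chains, each holding a haem group. The alpha-like genes lie together on chromosome 16 and the beta-like genes on chromosome 11, in the order in which they are switched on during development, from embryonic through fetal to adult forms. Their transcription in red cell precursors depends on factors such as GATA1 and KLF1, and the supply of haem is set by ALAS2. Monocytic cells are not known for globin production.

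RRM2 itself lay at 215 to 235 CPM (counts scaled by TMM-adjusted library size) in RRM2_OE libraries and at 116 to 128 CPM in MOCK libraries (log2 fold change 0.87, SE 0.05, adjusted p = 5.64e-07, edgeR). The libraries held 10994255 to 11686152 counts. Of 7 monocyte markers, 6 reached 1 CPM in all 8 libraries, and the macrophage marker CD68 lay at 0.348 to 1.12 CPM in RRM2_OE and 0.265 to 1.055 CPM in MOCK. Of 8 erythroid markers, 7 reached 1 CPM in all 8 libraries as well, among them KLF1 and the anion exchanger SLC4A1. Mast cell markers (4 of 4), granulocyte markers (5 of 5) and megakaryocyte markers (4 of 6) also reached 1 CPM in every library. So did 3 of 5 T and NK cell markers, 2 of 4 B cell markers and 2 of 4 epithelial markers. This cut-off of 1 CPM therefore does not tell lineages apart, but summed levels differed widely. Over the 8 libraries, B cell markers summed to 4.15 to 7.82 CPM and epithelial markers to 27.3 to 33.9 CPM. Mast cell markers summed to 1093 to 1359.5 CPM and monocyte markers to 1920.2 to 2649 CPM, and the erythroid factor GATA1 lay at 95.9 to 114 CPM. High mast cell and erythroid genes thus stand beside a monocytic label. The label THP1 was kept only as the name of the line, and its identity was not tested. Libraries numbered 1 and 3 differed from those numbered 2 and 4 in both groups, and each result is given with that split where it bears on it. The split has no stated source in the labels.

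The upstream sequences of HBD and ALAS2 are shown as the 2 of the 10 genes that could be matched in the RefSeq promoter table (GRCh38.p14): HBD is an adult globin whose level followed the replicate numbers, and ALAS2 fell in RRM2_OE. Each line gives the 250 bases before the annotated start, 5′ to 3′ along the gene, from chr11:5234484-5234733 on the minus strand for HBD and chrX:55030978-55031227 on the minus strand for ALAS2. Capitals mark GATA words, the CACCC motif and the motif CCAAT, each searched on both strands. A GATA word was AGATAA or the word AGATAG, or either of them with T as its first letter.
HBD: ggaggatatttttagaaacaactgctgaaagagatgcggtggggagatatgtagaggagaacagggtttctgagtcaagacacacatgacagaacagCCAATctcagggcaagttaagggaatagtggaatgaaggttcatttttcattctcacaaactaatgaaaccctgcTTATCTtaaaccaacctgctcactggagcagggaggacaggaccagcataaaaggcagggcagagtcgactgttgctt
ALAS2: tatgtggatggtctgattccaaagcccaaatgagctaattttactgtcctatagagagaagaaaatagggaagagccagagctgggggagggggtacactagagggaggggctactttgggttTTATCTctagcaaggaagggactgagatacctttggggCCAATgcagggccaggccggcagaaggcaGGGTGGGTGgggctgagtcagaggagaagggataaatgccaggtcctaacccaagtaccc
Each sequence held 1 GATA word, beginning 78 bases before the start in HBD and 127 bases before it in ALAS2, and 22.3% of the 35116 windows of this length in the table held one. CCAAT stood 153 bases before the start of HBD and 89 bases before that of ALAS2 (32.01% of windows). ALAS2 held CACCC on the opposite strand at 60 and 56 bases before the start, 2 matches that share a base, and the HBD window held no CACCC (54.7% of windows held it). Both had ATAAA on the gene's strand, 31 bases before the start in HBD and 29 in ALAS2, against 32.7% of windows with it on either strand, and ALAS2 had a further ATAAA on the other strand that overlaps its GATA word.

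Which of these genes differed between RRM2_OE and MOCK was tested with edgeR's quasi-likelihood test across the 15286 genes that passed its filter on low counts. Of the 10 genes, 9 passed that filter (HBZ did not). The fetal globins HBG2 and HBG1, the embryonic globin HBE1, AHSP and ALAS2 fell, and no member rose. HBA1, HBA2, HBD and HBB did not pass at an adjusted p of 0.05. Of all genes tested, 5.42% were called lower and 7.41% higher, so the 5 calls among 9 tested genes stand beside a background of 5.42%. For the same 5 genes every RRM2_OE library lay below every MOCK library, as it did for 8.92% of all genes tested. HBA1 and HBA2, and likewise HBG1 and HBG2, have identical or nearly identical coding sequences, so their counts may not be separate measures. With each pair summed as 1 feature, 4 features were called lower, and the HBA pair gave -0.26 on the log2 scale (adjusted p = 0.760, edgeR). All 9 fold changes were negative, with a median log2 fold change of -0.54, beside -0.00 over all genes tested. The genes had been picked with earlier results of these libraries known, so this count is a description. In bulk RNA, fewer cells expressing a gene and less RNA per cell cannot be told apart.

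**Figure D1:**
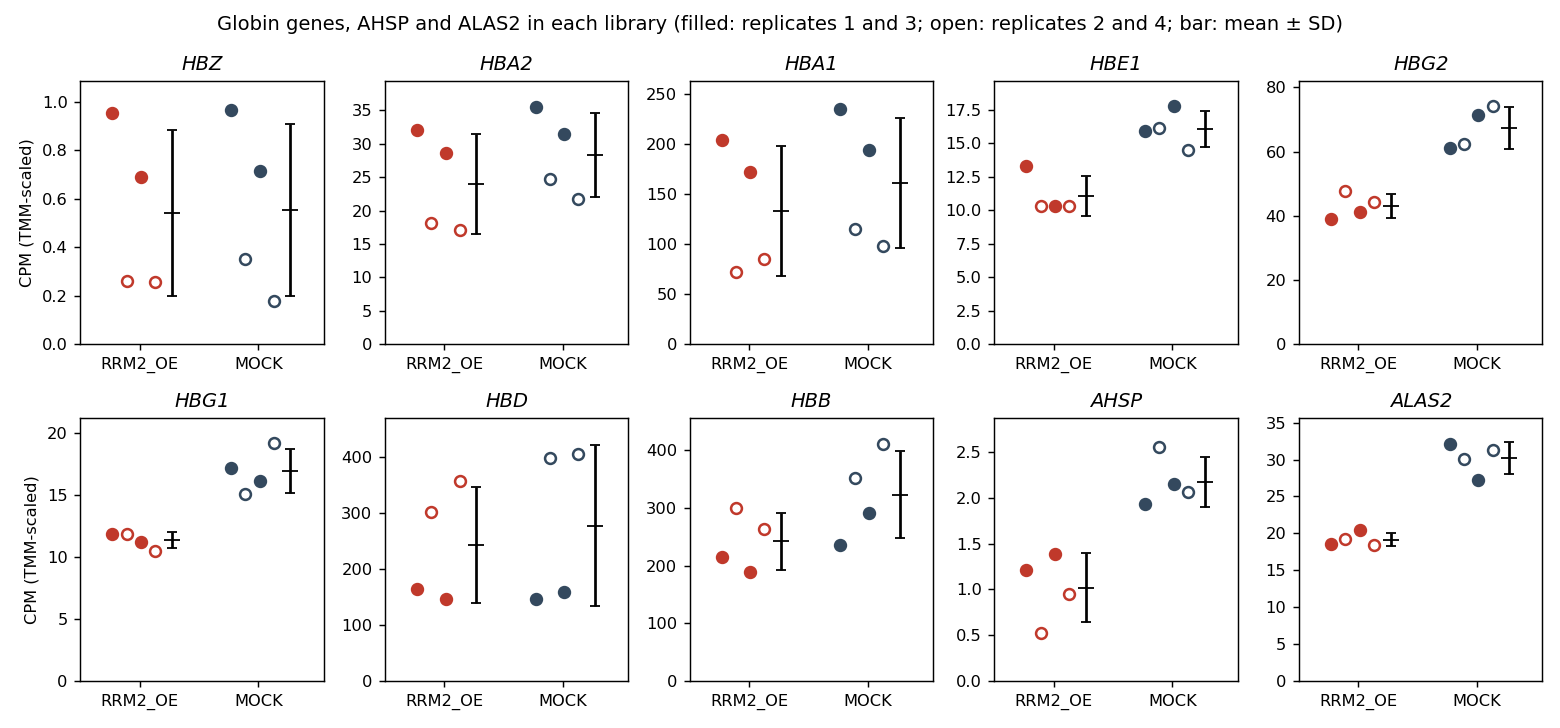
CPM on TMM-scaled library sizes (y axes, from 0) of the 10 genes in the 4 RRM2_OE and 4 MOCK libraries, with filled points for replicates 1 and 3, open points for replicates 2 and 4, and mean ± SD beside each group. HBG2, HBG1, HBE1, AHSP and ALAS2 separate the groups, whereas HBA1 and HBD separate filled from open points.

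Among the fetal beta-like genes, HBG2 (ENSG00000196565) encodes a gamma chain of fetal haemoglobin. It had 39.0, 47.7, 41.3 and 44.2 CPM in RRM2_OE replicates 1 to 4, against 61.3, 62.4, 71.5 and 74.2 CPM in MOCK replicates 1 to 4. Every RRM2_OE library lay below every MOCK library. The difference was -0.64 on the log2 scale (SE 0.08, 0.640-fold, adjusted p = 2.20e-04, edgeR), -0.73 in replicates 1 and 3 alone and -0.57 in replicates 2 and 4 alone.

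HBG1 (ENSG00000213934) encodes the other gamma chain. It had 11.9, 11.9, 11.2 and 10.5 CPM in RRM2_OE libraries, against 17.2, 15.1, 16.2 and 19.3 CPM in MOCK libraries, again without overlap. Its log2 fold change was -0.57 (SE 0.09, adjusted p = 0.00173, edgeR). The coding sequences of HBG1 and HBG2 differ at 2 of 444 bases in GENCODE 29 and share an unbroken run of 226 identical bases, and how the authors' counting treated reads that fit both is not stated. With the counts of both genes summed as 1 feature, the pair gave -0.63 on the log2 scale (adjusted p = 1.25e-04, edgeR).

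HBE1 (ENSG00000213931), the embryonic beta-like chain, had 13.3, 10.3, 10.3 and 10.3 CPM in RRM2_OE libraries and 15.9, 16.2, 17.8 and 14.5 CPM in MOCK libraries. Replicate 1 stood above the other RRM2_OE libraries and still below the lowest MOCK library. HBE1 fell by 0.54 on the log2 scale (SE 0.10, adjusted p = 0.00533, edgeR). In the files' build, hg19, HBG2 is annotated from 5274420 to 5667019 on the minus strand of chromosome 11 and HBE1 from 5289582 to 5526847, so that the span of HBE1 lies inside that of HBG2. HBG2 overlaps 10 measured genes on its strand and 10 on the other, mostly odorant receptor genes. Of these, only HBE1, UBQLNL and TRIM6 reached 10 counts in any library. TRIM6, on the opposite strand, gave -0.09 on the log2 scale (adjusted p = 0.503, edgeR).

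The adult beta-like genes were the most abundant of the cluster. HBB (ENSG00000244734, chromosome 11, 5246694 to 5250625), the adult beta chain, had 215, 299, 189.8 and 264 CPM in RRM2_OE replicates 1 to 4, against 236, 353, 292 and 412 CPM in MOCK replicates 1 to 4. The groups overlapped: the even-numbered RRM2_OE libraries lay above MOCK replicate 1. HBB averaged 242 ± 49.1 CPM in RRM2_OE and 323 ± 75.8 CPM in MOCK (SD, n = 4 each), a log2 fold change of -0.42 (SE 0.19, adjusted p = 0.199, edgeR). HBB passed in replicates 1 and 3 alone (-0.39, SE 0.09, adjusted p = 0.00966, edgeR) and not in replicates 2 and 4 alone (-0.44, SE 0.12, adjusted p = 0.126, edgeR). With a term for odd against even replicate numbers the adjusted p was 0.0290 (14.9% of all genes tested were called lower in that fit), and with replicate number as a block it was 0.102 (14% lower).

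HBD (ENSG00000223609, chromosome 11, 5253908 to 5256600) encodes the delta chain, which in adult blood makes up a minor haemoglobin. It had 165, 302, 147 and 356 CPM in RRM2_OE libraries and 147, 398, 159 and 405 CPM in MOCK libraries. In both groups replicates 2 and 4 were high and replicates 1 and 3 low. The difference between groups was -0.19 (SE 0.49, adjusted p = 0.861, edgeR), and it was 0.02 in replicates 1 and 3 alone and 0.03 or 0.05 without MOCK replicate 2 or MOCK replicate 4, so no direction was set. In replicates 2 and 4 alone it was -0.28 (adjusted p = 0.00646, edgeR). The test of the difference between the 2 splits gave an adjusted p of 1.00 for all 9 genes tested, and 0 of 15286 genes passed it (491 had an unadjusted p below 0.05, edgeR).

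**Figure D2:**
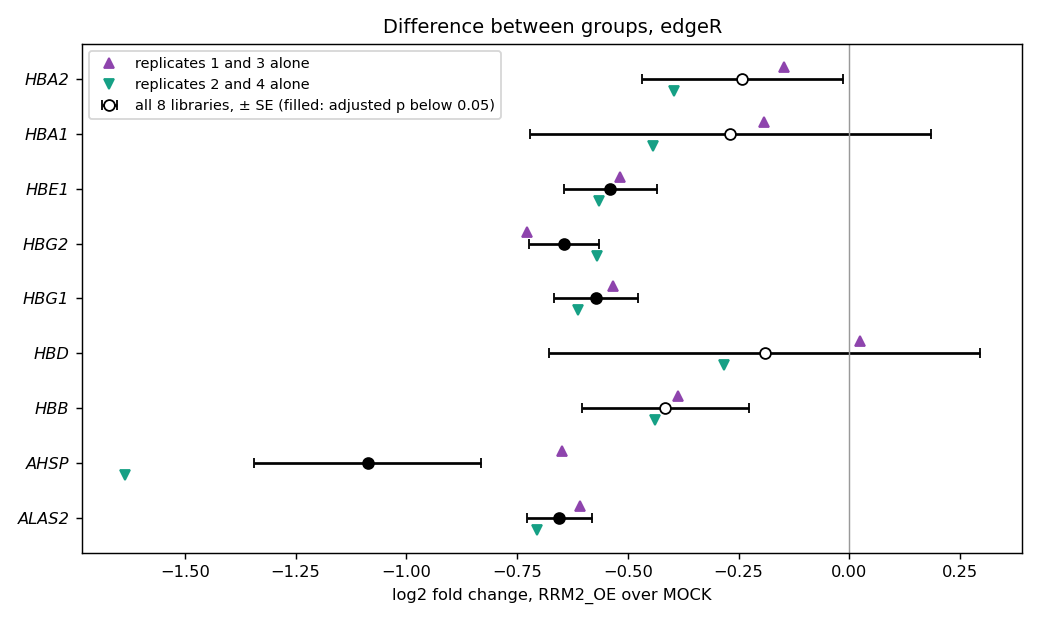
Log2 fold changes of RRM2_OE over MOCK (x axis) for the 9 tested genes over all 8 libraries with their standard errors, filled where the edgeR adjusted p was below 0.05, and the same from replicates 1 and 3 alone and from replicates 2 and 4 alone. HBG2, HBG1, HBE1 and ALAS2 lie between -0.73 and -0.52 in every fit shown, and HBD changes sign between the splits.

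The alpha genes, whose coding sequences are identical over all 429 bases, followed the same split. HBA1 (ENSG00000206172, chromosome 16, 226679 to 227521) had 204, 71.9, 172 and 84.9 CPM in RRM2_OE libraries, against 235, 115, 194 and 98.4 CPM in MOCK libraries. HBA2 (ENSG00000188536, chromosome 16, 222846 to 223709) had 32.05, 18.1, 28.5 and 17.2 CPM in RRM2_OE libraries and 35.5, 24.7, 31.4 and 21.7 CPM in MOCK libraries. For both genes replicates 1 and 3 were high in either group, the opposite of HBD, and the groups overlapped. Log2 fold changes were -0.27 for HBA1 (SE 0.45, adjusted p = 0.777, edgeR) and -0.24 for HBA2 (SE 0.23, adjusted p = 0.561, edgeR). In replicates 2 and 4 alone both passed, HBA1 at -0.44 (adjusted p = 0.0011, edgeR) and HBA2 at -0.40 (adjusted p = 0.00403, edgeR), and in replicates 1 and 3 alone neither did, HBA1 at -0.19 (adjusted p = 0.188, edgeR) and HBA2 at -0.15 (adjusted p = 0.265, edgeR). In all, 8 members were called lower in replicates 2 and 4 alone, beside 7.96% of all genes tested there, and 5 in replicates 1 and 3 alone, beside 8.63%. With replicate number as a block, HBA2 passed (-0.25, adjusted p = 0.00511, edgeR) and HBA1 did not (-0.29, adjusted p = 0.0896, edgeR). HBA1 had 3.98 to 6.38 times the counts of HBA2 in RRM2_OE libraries and 4.54 to 6.62 times in MOCK libraries, a ratio that depends on how reads common to both were assigned. HBZ (ENSG00000130656), the embryonic alpha-like chain, had 11, 3, 8 and 3 counts in RRM2_OE libraries and 11, 4, 8 and 2 counts in MOCK libraries, too few for the filter.

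AHSP (ENSG00000169877, chromosome 16, 31539185 to 31540124) encodes the chaperone that keeps free alpha chains soluble. It was rare, at 1.22, 0.522, 1.38 and 0.948 CPM in RRM2_OE libraries, against 1.93, 2.56, 2.15 and 2.06 CPM in MOCK libraries. No RRM2_OE library reached the lowest MOCK library. AHSP fell by 1.09 on the log2 scale (SE 0.26, 0.471-fold, adjusted p = 0.0152, edgeR), on 6 to 29 counts a library. In replicates 1 and 3 alone the fold change was -0.65 and did not pass (adjusted p = 0.223, edgeR), and in replicates 2 and 4 alone it was -1.64 (adjusted p = 0.00131, edgeR).

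ALAS2 (ENSG00000158578, chromosome X, 55035488 to 55057497) encodes 5-aminolevulinate synthase 2, the rate-limiting enzyme of haem synthesis in red cell precursors. It had 18.6, 19.2, 20.4 and 18.4 CPM in RRM2_OE libraries, against 32.1, 30.02, 27.2 and 31.3 CPM in MOCK libraries. The 4 RRM2_OE libraries lay close together and all below the MOCK libraries. The log2 fold change was -0.66 (SE 0.07, 0.635-fold, adjusted p = 1.24e-04, edgeR), with -0.61 in replicates 1 and 3 alone and -0.71 in replicates 2 and 4 alone. Its span touches that of APEX2 on the opposite strand, a repair gene that gave 0.02 on the log2 scale (adjusted p = 0.930, edgeR). ALAS1, the housekeeping form of the enzyme, had 767 to 774 CPM in RRM2_OE libraries and 704 to 729 CPM in MOCK libraries (log2 difference 0.10, SE 0.04, adjusted p = 0.114, edgeR). Per exon length ALAS1 was 31.9 to 35.4 times as high as ALAS2 in RRM2_OE libraries and 18.9 to 22.2 times as high in MOCK libraries.

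Per exon length, in the authors' RPKM (counts scaled by exon length and library total), the adult genes led. HBD, HBB and HBA1 were the highest, and their ranges overlapped: HBD at 137 to 341 RPKM in RRM2_OE and 134 to 387 in MOCK, HBB at 160.1 to 258 RPKM in RRM2_OE and 195 to 355 in MOCK, and HBA1 at 87.6 to 243 RPKM in RRM2_OE and 119.7 to 274 in MOCK. HBA2 and HBG2 followed and overlapped each other, at 20.3 to 37.1 and 19.1 to 23.9 RPKM in RRM2_OE, and 25.7 to 40.4 and 29.4 to 37.2 RPKM in MOCK. The exon length given for HBG2, 2027 base pairs against 808 for HBG1, includes distant exons, which lowers its RPKM. HBG1 and HBE1 overlapped each other next, then came ALAS2, at 8.64 to 9.51 RPKM in RRM2_OE and 12.7 to 14.9 RPKM in MOCK, with no overlap with HBE1 in either group. AHSP had 0.944 to 2.45 RPKM in RRM2_OE and 3.35 to 4.52 RPKM in MOCK, and HBZ had 0.348 to 1.25 RPKM in RRM2_OE and 0.241 to 1.25 RPKM in MOCK, so that the last 2 overlapped in RRM2_OE only. By mean RPKM in MOCK, HBB ranked 85, HBD 89 and HBA1 122 among the 34618 genes of the table, whereas ALAS2 ranked 3776.

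**Figure D3:**
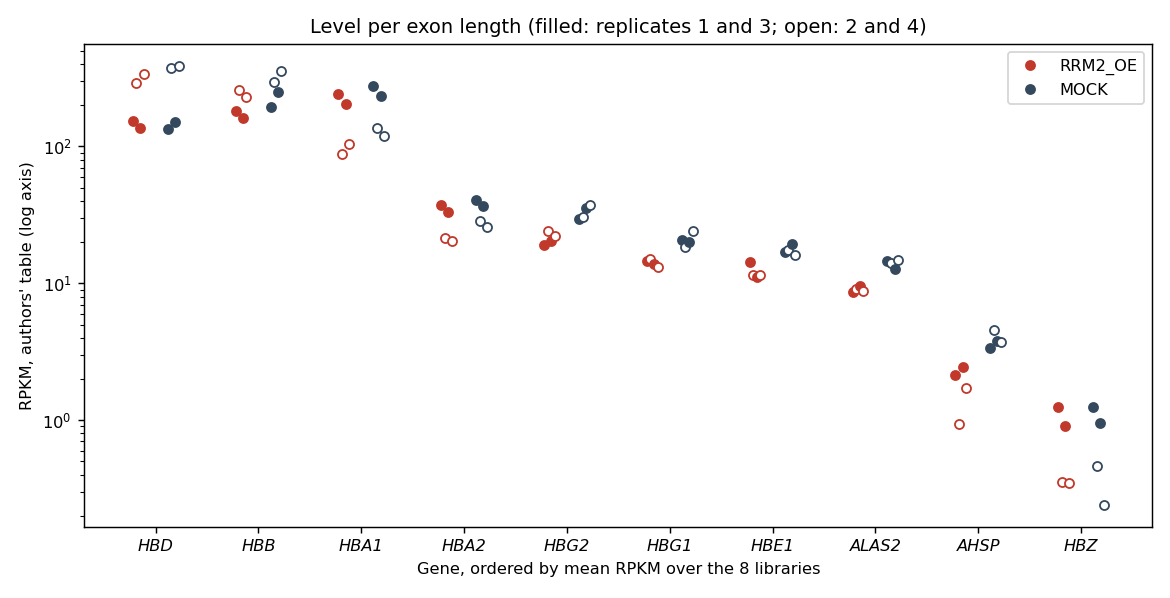
RPKM of the authors' table (y axis, log scale) for the 10 genes, ordered by their mean over the 8 libraries, with RRM2_OE left of MOCK for each gene, filled points for replicates 1 and 3 and open points for replicates 2 and 4. HBD, HBB and HBA1 lie between 87.6 and 387 RPKM, and HBZ stays at or below 1.25 RPKM.

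The ratio of alpha to beta counts followed the replicate numbers. The alpha-cluster genes had 0.504 to 0.534 times the counts of the beta-cluster genes in RRM2_OE replicates 1 and 3, against 0.134 to 0.149 in RRM2_OE replicates 2 and 4. In MOCK the same ratio was 0.406 to 0.569 in replicates 1 and 3 and 0.130 to 0.166 in replicates 2 and 4. The odd-numbered libraries were thus higher in both groups without overlap. In a fit with both terms, HBA1 was higher by 1.13 (SE 0.12) and HBA2 by 0.65 (SE 0.07) on the log2 scale in odd-numbered libraries, HBD was lower by 1.24 (log2 difference -1.24, SE 0.10) and HBB gave -0.51 (SE 0.10). The log2 difference between odd and even numbers was smaller for HBG1 (-0.00, SE 0.09), ALAS2 (-0.01, SE 0.07), HBG2 (-0.11, SE 0.06) and HBE1 (0.16, SE 0.09). AHSP gave 0.15 with an SE of 0.25, too wide to call its difference small. HBZ, not tested, lay at 0.692 to 0.967 CPM in odd-numbered and 0.179 to 0.353 CPM in even-numbered libraries. Odd and even libraries did not overlap for 3 of the 9 tested genes, HBA1, HBA2 and HBD, beside 19.3% of all genes tested. These differences are given without a test, because the split was noticed in these same libraries.

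HBD stood at 0.850 to 1.497 times HBB per exon length in RRM2_OE libraries and at 0.605 to 1.25 times in MOCK libraries. Its ratio to HBB per exon length exceeded 1 in replicates 2 and 4 of both groups and stayed below 1 in replicates 1 and 3. By counts the ratio was 0.983 to 1.348 in even-numbered and 0.545 to 0.773 in odd-numbered libraries, with MOCK replicate 4 below 1. The crossing of 1 thus depends on the exon lengths given, 1062 base pairs for HBD and 1179 for HBB. The coding sequences of HBB and HBD differ at 32 of 444 bases, with a longest identical run of 54 bases. The gamma genes HBG1 and HBG2 made up 11.5% and 13.2% of the beta-cluster counts in RRM2_OE replicates 1 and 3, against 16.4% and 15.7% in MOCK replicates 1 and 3. In replicates 2 and 4 they made up 8.88% and 7.98% in RRM2_OE, against 9.18% and 10.1% in MOCK. The share was lower in RRM2_OE within either split, while the groups overlapped over all 8 libraries. All 8 globin genes together took 0.0597% to 0.0800% of the counts in RRM2_OE and 0.0729% to 0.106% in MOCK.

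**Figure D4:**
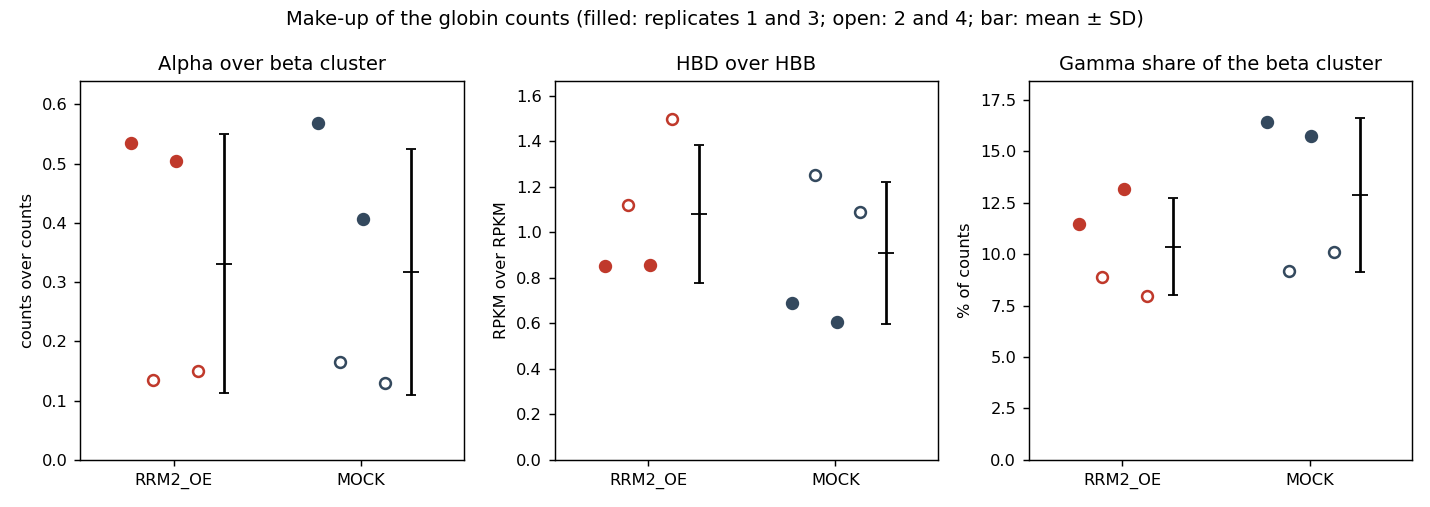
Alpha-cluster over beta-cluster counts, HBD over HBB in RPKM, and the gamma genes' share of beta-cluster counts in percent (y axes, from 0), for each RRM2_OE and MOCK library, with filled points for replicates 1 and 3, open points for replicates 2 and 4, and mean ± SD. The alpha over beta ratio is 0.406 to 0.569 in odd-numbered libraries and 0.130 to 0.166 in even-numbered ones.

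The members with the highest mean RPKM were set against 11894 other genes with a mean of at least 5 CPM, by the root mean square difference of z-scored log2 CPM over the 8 libraries, where 0 means identical profiles. The profile most like that of HBD was that of SEM1 (0.102), with 35.7 to 37.1 CPM in odd-numbered and 46.5 to 51.0 CPM in even-numbered libraries, followed by BANF1 (0.1204) and RCHY1 (0.126). For HBB the nearest was RPL3, a ribosomal protein gene (0.0974), then GATD3 (0.149) and PCNT (0.152). For HBA1 they were SMAD1 (0.121), PPP1R11 (0.146) and TMEM104 (0.148). None of these 9 genes passed the test between RRM2_OE and MOCK (adjusted p = 0.168 to 0.962, edgeR), and the 8 libraries they share set both the split and the likeness.

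Genes around haemoglobin production were counted in 6 lists with 80 entries, of which 69 were tested. In all, 5 rose and 12 fell, beside 7.41% higher and 5.42% lower over all genes tested. With replicate number as a block, 6 rose and 25 fell, beside 15.1% higher and 14% lower over all genes tested.

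The red cell membrane and receptor genes gave most of the falls: of 19 tested, 9 fell and 0 rose, with a median log2 fold change of -0.21. GYPC, the glycophorin that anchors the membrane skeleton, had 127 to 139.6 CPM in RRM2_OE libraries and 182 to 206 CPM in MOCK libraries (-0.50, SE 0.05, adjusted p = 6.25e-05, edgeR). ADD2, the skeleton protein beta-adducin, had 3.13 to 4.87 CPM in RRM2_OE libraries and 8.79 to 10.2 CPM in MOCK libraries (-1.28, SE 0.14, adjusted p = 1.10e-04, edgeR). RHAG, the Rh-associated glycoprotein, had 39.4 to 43.8 CPM in RRM2_OE libraries and 51.0 to 56.4 CPM in MOCK libraries (-0.36, SE 0.06, adjusted p = 0.00142, edgeR). None of these 3 genes, which were named because they were called, overlapped between groups. Over all genes tested, 8.92% had every RRM2_OE library below every MOCK library.

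Haem synthesis genes other than ALAS2 were nearly flat. Of 13 tested, 1 rose and 0 fell, with a median of -0.05. The gene that rose was TMEM14C, a mitochondrial carrier needed for haem synthesis in red cell precursors, with 78.1 to 81.9 CPM in RRM2_OE libraries and 68.1 to 72.6 CPM in MOCK libraries (0.19, SE 0.05, adjusted p = 0.0162, edgeR). Its call was lost without MOCK replicate 3 (adjusted p = 0.0503, edgeR) or RRM2_OE replicate 2 (adjusted p = 0.0505, edgeR). With replicate number as a block, 3 haem synthesis genes rose and 2 fell, beside 15.1% higher and 14% lower over all genes tested.

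Of 8 erythroid transcription factors tested, 1 rose and 0 fell, with a median of -0.11. GFI1B, a transcriptional repressor needed for red cell and platelet development, had 36.9 to 45.2 CPM in RRM2_OE libraries and 29.4 to 35.3 CPM in MOCK libraries (0.32, SE 0.08, adjusted p = 0.0222, edgeR). That call was lost without MOCK replicate 3, MOCK replicate 4, RRM2_OE replicate 1 or RRM2_OE replicate 3 (adjusted p = 0.0622 to 0.0661, edgeR). GATA1, the central erythroid factor, had 96.0 to 113 CPM in RRM2_OE libraries and 95.9 to 114 CPM in MOCK libraries (log2 fold change 0.02, adjusted p = 0.898, edgeR). It lay at 105.7 to 113.6 CPM in odd-numbered and 95.9 to 101.1 CPM in even-numbered libraries. KLF1, the activator of adult beta globin, had 34.4 to 38.6 CPM in RRM2_OE libraries and 40.2 to 43.6 CPM in MOCK libraries (-0.19, SE 0.06, adjusted p = 0.0617, edgeR). With the block 1 of these factors rose and 4 fell, KLF1 among the latter (adjusted p = 0.00853, edgeR). Over all genes tested, that fit called 15.1% higher and 14% lower.

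Among known regulators of fetal globin, 12 of 16 were tested, and 2 fell and 0 rose, with a median of -0.09. BCL11A, the repressor of the gamma genes, had 25.2, 21.7, 24.9 and 20.9 CPM in RRM2_OE libraries, against 33.7, 34.3, 30.9 and 32.6 CPM in MOCK libraries (-0.50, SE 0.08, adjusted p = 9.51e-04, edgeR). Its log2 fold change was -0.37 in replicates 1 and 3 alone and -0.65 in replicates 2 and 4 alone. MYB, a factor of immature blood cells whose reduction is known to raise fetal globin, had 422 to 448 CPM in RRM2_OE libraries and 501 to 526 CPM in MOCK libraries (-0.25, SE 0.04, adjusted p = 0.00211, edgeR). BCL11A and MYB were lower in the same libraries in which HBG2 and HBG1 were lower, and a link between them was not tested. ZBTB7A, a further gamma repressor, had 133.8 to 179 CPM in RRM2_OE libraries and 133.5 to 187 CPM in MOCK libraries (-0.05, adjusted p = 0.853, edgeR). It followed the replicate numbers, at 170.4 to 187 CPM in odd-numbered and 133.5 to 147.7 CPM in even-numbered libraries. LIN28B, a fetal-stage regulator, had 0 counts in every library, which allows up to 3 counts in each, by counting error only.

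Of 15 iron-handling genes tested, 2 rose and 1 fell, with a median of -0.05. SLC25A37, the mitoferrin that carries iron into mitochondria for haem synthesis, had 106 to 117 CPM in RRM2_OE libraries and 138 to 154 CPM in MOCK libraries (-0.39, SE 0.05, adjusted p = 3.98e-04, edgeR). HMOX1, the haem-degrading oxygenase, had 101 to 117 CPM in RRM2_OE libraries and 87.4 to 99.5 CPM in MOCK libraries (0.23, SE 0.06, adjusted p = 0.0286, edgeR), a call lost without MOCK replicate 2 or 4 or RRM2_OE replicate 1, 3 or 4 (adjusted p = 0.0535 to 0.0852, edgeR). The ferritin heavy chain FTH1 (0.24, SE 0.07, adjusted p = 0.0363, edgeR) lost its call with the block (adjusted p = 0.0948, edgeR) and without MOCK replicate 3, MOCK replicate 4 or any single RRM2_OE library (adjusted p = 0.0528 to 0.104, edgeR). The transferrin receptor TFRC gave -0.10 on the log2 scale (adjusted p = 0.243, edgeR). With the block, 1 iron gene rose and 4 fell, beside 15.1% higher and 14% lower over all genes tested.

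Of the globins outside the clusters' main genes, CYGB, the cytoglobin of many tissues, had 4.34 to 5.65 CPM in RRM2_OE libraries and 2.33 to 4.31 CPM in MOCK libraries (0.69, SE 0.19, adjusted p = 0.0310, edgeR), a call lost without MOCK replicate 2, 3 or 4 or RRM2_OE replicate 2, 3 or 4 (adjusted p = 0.0555 to 0.0882, edgeR). In replicates 1 and 3 alone CYGB gave 0.43 (adjusted p = 0.206, edgeR), and in replicates 2 and 4 alone 0.95 (adjusted p = 0.00181, edgeR). HBQ1, the theta globin of the alpha cluster, had 1.22 to 2.16 CPM in RRM2_OE libraries and 1.501 to 2.86 CPM in MOCK libraries (-0.24, adjusted p = 0.597, edgeR). HBM had at most 1 count in a library, and myoglobin (MB) at most 2.

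**Figure D5:**
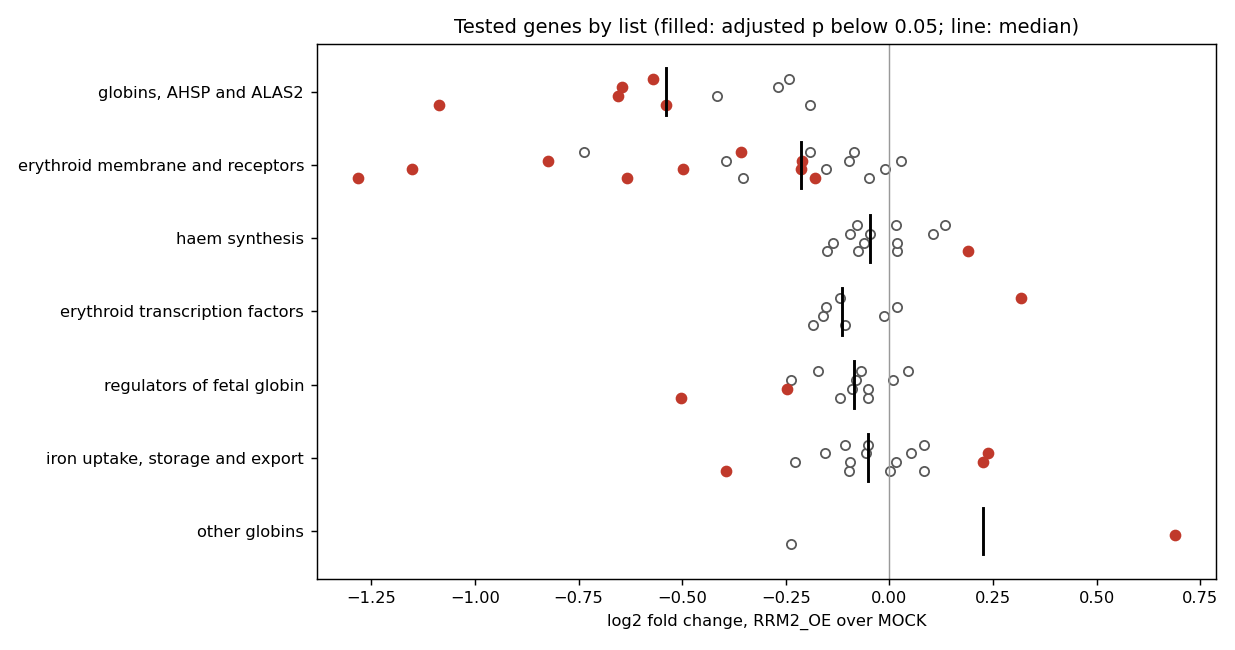
Log2 fold changes of RRM2_OE over MOCK (x axis) of the tested genes in each list, filled where the edgeR adjusted p was below 0.05, with a line at the list's median. The membrane and receptor genes have 9 filled points, all below 0, and the haem synthesis genes lie near 0 apart from ALAS2, which is drawn with the globins.

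Markers of several lineages were summed in each library, without a test. The summed erythroid markers, 8 genes led by TFRC, lay at 1713 to 1832 CPM in RRM2_OE libraries and 1832 to 1987 CPM in MOCK libraries, ranges that just overlapped. This sum is weighted to its most abundant genes and says little of KLF1, which lay at 34.4 to 43.6 CPM over the 8 libraries. The 7 monocyte markers summed to 2450 to 2649 CPM in RRM2_OE libraries and 1920.2 to 2107 CPM in MOCK libraries, and the 5 granulocyte markers to 2001 to 2371 CPM in RRM2_OE libraries and 4444 to 5314 CPM in MOCK libraries. The 6 megakaryocyte markers, of which GP1BB had 0 counts throughout, summed to 391 to 409 CPM in RRM2_OE libraries and 352 to 370.1 CPM in MOCK libraries. The 4 mast cell and basophil markers summed to 1296 to 1359.5 CPM in RRM2_OE libraries and 1093 to 1171 CPM in MOCK libraries, and the 5 T and NK cell markers to 63.7 to 78.6 CPM in RRM2_OE libraries and 44.3 to 49.5 CPM in MOCK libraries. B cell markers (5.603 to 7.82 CPM in RRM2_OE, 4.15 to 6.24 CPM in MOCK) and epithelial markers (29.997 to 33.9 CPM in RRM2_OE, 27.3 to 33.7 CPM in MOCK) overlapped between groups as well. Sums of the monocyte, granulocyte, megakaryocyte, mast cell and T and NK cell markers did not. Among single genes tested, 19.4% did not overlap in either direction. The part of the marker differences in the lower HBG2, HBG1, HBE1, AHSP and ALAS2 was not tested.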

How the data were processed

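The members and gene lists were chosen with earlier results of these data known. Per the labels' protocols, libraries were stranded poly(A) RNA libraries made from 200 ng of total RNA. The authors deposited whole-number read counts per Ensembl gene and RPKM for the same genes. Per the submitters' processing notes, bcl2fastq 2.18.0.12, TopHat2, HTSeq 0.11.2 and hg19 (GRCh37) were used, with no roles given; the gene annotation and strand setting are not stated there. The deposited RPKM was recomputed from counts, exon lengths and column totals to within 4.73e-06.

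Columns were matched to samples by name. Counts were tested in edgeR 4.0.16 (R 4.3.3; filterByExpr, TMM, robust quasi-likelihood), RRM2_OE against MOCK without covariates, with Benjamini-Hochberg adjustment over 15286 genes and a threshold of 0.05. Standard errors were derived from each log2 fold change and its F statistic. The script was tested on simulated data. Alternatives used DESeq2 1.42.0, limma 3.58.1 (voom, and log2 RPKM with pseudocounts of 1 and 0.1 at a mean of at least 0.5 RPKM), other scalings and filters, a block, an odd/even term and leaving out libraries; the interaction with odd/even numbers was added after the data were seen.

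Same-numbered libraries correlated at 0.22 to 0.25 in their deviations from group means. Other pairs of like parity lay at 0.23 to 0.29, and pairs of unlike parity between -0.28 and -0.21. The check thus separated odd from even numbers and gave no evidence that same-numbered libraries are pairs. The replicate block was fitted without such evidence. Named were RRM2, the members, up to 4 called genes of each list, overlapping genes, and the 3 nearest profiles of the 3 members highest in RPKM; uncalled genes beyond these were chosen after their values were seen. Some genes that the naming rule covers are not reported here. NCOA4, HBBP1 and HBAP1 had no match and were not used here.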

Additional observations from a re-analysis of the deposited data

Results flagged for a closer look

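HBE1 in RRM2_OE replicate 1 lay apart from its group, at 13.3 CPM against 10.3 CPM in each of the other 3 RRM2_OE libraries. Of 52 groups of 4 libraries checked this was the 1 that stood apart, where chance alone sets about 1 in 20 apart. Without that library the log2 fold change of HBE1 was -0.64 (adjusted p = 0.00197, edgeR).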

How the results depend on the processing

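HBG2, HBG1, HBE1, AHSP and ALAS2 kept their direction under every alternative that tested them and remained called in all 8 fits that left out a library; AHSP missed the threshold in replicates 1 and 3 alone and at an adjusted p of 0.01. The count of members called lower was 8 in replicates 2 and 4 alone, where HBA1, HBA2 and HBD passed, and 5 in replicates 1 and 3 alone, where HBB passed and AHSP did not. HBD reversed to 0.024 in replicates 1 and 3 alone, 0.034 without MOCK replicate 2 and 0.048 without MOCK replicate 4, the 8 fits without a library ranging from -0.44 to 0.048. Over all genes, 2303 were higher and 2143 lower with the replicate block, 2427 and 2277 with an odd/even term, and 530 and 281 at an adjusted p of 0.01; 1330 were lower in replicates 1 and 3 alone and 1224 in replicates 2 and 4 alone, 416 on log2(RPKM + 1) and 407 on log2(RPKM + 0.1). Leaving out 1 library gave 808 to 937 higher and 542 to 607 lower. Among the members, pairing the libraries by replicate number changed the call of HBA2 and no other. Of the list genes, 25 fell with the replicate block and 27 with an odd/even term, 3 rose on log2(RPKM + 0.1), 0 rose at an adjusted p of 0.01, and 1 to 5 rose and 9 to 12 fell without 1 library. The cause was not tested. Depth limits HBZ, at 2 to 11 counts, and AHSP, at 6 to 29.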
